A study of Rattus norvegicus with 3 samples.

Results

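Cd4 and Cd8a, the genes of the T cell co-receptors CD4 and CD8 alpha, were followed across the phagocytes and T cells of the injured rat spinal cord. They are 2 of the 25199 genes in the deposited tables and were taken by symbol, Cd4 as ENSRNOG00000016294 and Cd8a as ENSRNOG00000007178, each listed once. They were chosen by their measured UMIs, which had been seen outside T cells in these same libraries, so their levels are a description and carry no test. Cd3e (ENSRNOG00000016069), a chain of the T cell receptor complex, served as the check for T cell RNA. Cd8b (ENSRNOG00000007129), the partner chain of CD8, was followed beside them.

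On T cells, CD4 binds MHC class II and CD8 binds MHC class I on the facing cell, and the tails of CD4 and of the CD8 alpha chain hold the kinase Lck, which starts signalling from the T cell receptor. In rats, monocytes, macrophages and microglia are also known to carry CD4, and CD8 has been described on activated macrophages and microglia. Rat NK cells are known for CD8 made of alpha chains alone, without the beta chain that Cd8b encodes.

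Cells came from wild type Rattus norvegicus aged 6 to 8 weeks, from a 5-mm piece of cord around the injury. The injury site had been injected with MPG-HD, with G-HD or with PBS, taken here as the control, and each condition had 5 animals and 1 library. The sources used here spell out neither abbreviation and leave out whether each library pools its animals, and no uninjured cord was analysed. With 1 library per condition no test between conditions was possible, and every interval given is at 95% and covers counting error only, not differences between animals.

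Counts are unique molecular identifiers (UMIs), each standing for 1 captured transcript. The 3 libraries held 16081082 to 26289759 UMIs, and 2087 MPG-HD, 2342 G-HD and 1374 PBS cells were kept, with medians of 9248 to 10425 UMIs. Pairs of libraries shared 4 to 7 kept cell barcodes. Cell types were rebuilt by clustering and are called X-like, since the files carry no annotation, and Cd4, Cd8a, Cd8b and Cd3e were kept out of the genes that formed the clusters. The 447 MPG-HD, 690 G-HD and 326 PBS macrophage-like cells formed 4 clusters. Cluster 3 was led by C1qc, Folr2 and Pf4, cluster 1 by Apoc4, Fabp5 and Gpnmb, cluster 11 by Spp1, Fabp4 and Mmp12, and cluster 7 by class II genes, Clec10a and Lyve1. Cluster 3 was the largest of them in MPG-HD and PBS and cluster 1 in G-HD. Microglia-like cells (379 MPG-HD, 281 G-HD and 270 PBS, all in cluster 0) were led by C1qa, Anxa3 and Tmem119, and T-like cells (53 MPG-HD, 106 G-HD and 51 PBS) by Cd3e, Cd3d and Cd3g. Levels are given in CPM, the UMIs of a gene per 1000000 UMIs of the class. The summed microglia markers stood at 506 CPM in MPG-HD, 542 in G-HD and 525 in PBS in cluster 0 and at 99.3 in MPG-HD, 108 in G-HD and 97.7 in PBS in cluster 3, so the border between those clusters was not sharp.

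The start of Cd8a is shown with that of Cd3e because Cd8a was read in phagocytes and T-like cells and Cd3e almost wholly in T-like cells. Shown are the 250 bases before each start in RefSeq on build GRCr8, which is not known to be the build of the files. Cd8a lies on the plus strand at chr4:104923866-104924115 and Cd3e on the minus strand at chr8:54211771-54212020. Both are written 5′ to 3′ on the strand of the gene, and capitals mark GGAA or its reverse complement TTCC, the core letters bound by Ets family factors such as PU.1.
Cd8a: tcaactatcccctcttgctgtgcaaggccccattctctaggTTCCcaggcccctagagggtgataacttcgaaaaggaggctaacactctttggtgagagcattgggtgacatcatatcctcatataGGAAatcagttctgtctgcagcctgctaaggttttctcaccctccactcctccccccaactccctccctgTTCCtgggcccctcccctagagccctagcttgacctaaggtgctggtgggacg
Cd3e: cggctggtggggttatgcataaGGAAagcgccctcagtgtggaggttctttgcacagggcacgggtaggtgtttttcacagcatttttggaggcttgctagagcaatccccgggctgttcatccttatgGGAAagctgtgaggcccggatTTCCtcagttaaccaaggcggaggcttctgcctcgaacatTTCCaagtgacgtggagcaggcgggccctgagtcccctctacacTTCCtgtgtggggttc
The core occurred 3 times before Cd8a and 5 times before Cd3e, and 93.2% of 33469 rat promoters of this length hold it at least once, so it sets neither gene apart. The RUNX letters TGTGGT, searched on both strands, were in neither window and are in 14.5% of all promoters. Cd4 and Cd8b were not matched in the promoter table.

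Most Cd8a was read in phagocytes. Of its 12851 UMIs in kept cells, 67.0% lay in macrophage-like, 23.8% in microglia-like and 2.95% in T-like cells. Cd8b gave 4778 UMIs, of which 63.7% lay in macrophage-like, 28.0% in microglia-like and 3.31% in T-like cells. Cd4 was sparse, with 266 UMIs, of which 45.5% lay in macrophage-like, 40.6% in microglia-like and 3.76% in T-like cells. Cd3e was the opposite: 97.3% of its 927 UMIs lay in T-like cells, and 4 UMIs in macrophage-like and 6 in microglia-like cells. These shares also follow how many cells of a class were caught and how deeply they were read: of all kept cells, 25.2% were macrophage-like, 16.03% microglia-like and 3.62% T-like.

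**Figure D1:**
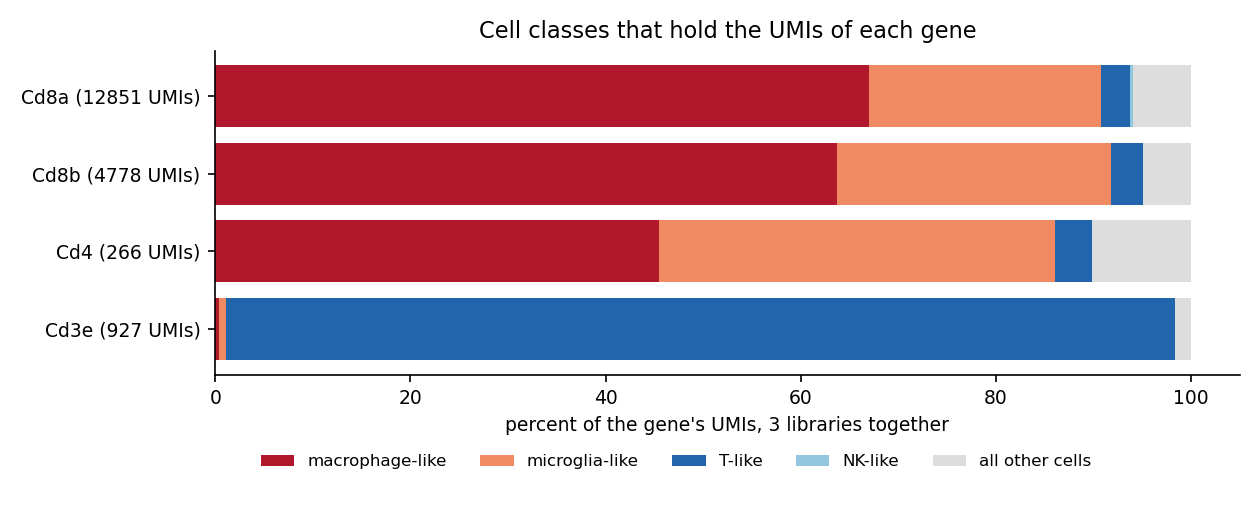
Percent of the UMIs of Cd8a, Cd8b, Cd4 and Cd3e held by macrophage-like, microglia-like, T-like, NK-like and all other cells, with the 3 libraries added up. Phagocytes hold most UMIs of Cd8a, Cd8b and Cd4, whereas T-like cells hold 97.3% of those of Cd3e.

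Cd8a, whose protein pairs with CD8 beta or with itself, stood in macrophage-like cells at 392 CPM in MPG-HD (378 to 406), 324 in G-HD (314 to 335) and 313 in PBS (299 to 329). Microglia-like cells had 286 in MPG-HD (271 to 301), 313 in G-HD (294 to 333) and 202 in PBS (186 to 218). Without a cell filter, part of them joined a macrophage-like cluster. The microglia-like level was then 179 in MPG-HD, 248 in G-HD and 161 in PBS. T-like cells had 593 in MPG-HD (490 to 712), 442 in G-HD (379 to 513) and 437 in PBS (351 to 537). In CPM, the macrophage-like level was thus a fraction of the T-like one, 0.660 in MPG-HD (0.548 to 0.802), 0.734 in G-HD (0.630 to 0.860) and 0.718 in PBS (0.581 to 0.898). Per cell the order turned, because the median macrophage-like cell gave 15762 to 17052 UMIs of all genes and the median T-like cell 3236 to 3470. Macrophage-like cells averaged 6.51 Cd8a UMIs per cell in MPG-HD, 5.81 in G-HD and 5.18 in PBS. T-like cells averaged 2.19 in MPG-HD, 1.63 in G-HD and 1.76 in PBS.

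A Cd8a UMI was found in macrophage-like cells at a share of 74.9% in MPG-HD (70.7 to 78.9), 77.2% in G-HD (73.9 to 80.3) and 73.3% in PBS (68.2 to 78.0). In microglia-like cells the shares were 57.8% in MPG-HD, 64.8% in G-HD and 54.1% in PBS, and in T-like cells 47.2% in MPG-HD, 41.5% in G-HD and 45.1% in PBS. Oligodendrocyte-like, Schwann-like and fibroblast-like cells, which should lack the gene, gave 2.90% in MPG-HD, 3.39% in G-HD and 1.69% in PBS at median depths of 7982 to 9675 UMIs, against 11410 to 12262 in microglia-like cells. With every cell thinned to 1000 UMIs, the shares were 27.7% in MPG-HD, 21.1% in G-HD and 23.0% in PBS for macrophage-like cells and 18.2% in MPG-HD, 19.2% in G-HD and 15.9% in PBS for microglia-like cells. T-like cells then had 35.8% in MPG-HD, 32.4% in G-HD and 24.5% in PBS, and the background cells 0.397% in MPG-HD, 0.334% in G-HD and 0.230% in PBS. Phagocytes stood above the background cells in each library, both as sequenced and at matched depth.

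Kinds of macrophage differed several-fold in Cd8a. Cluster 3 had the highest level, at 648 CPM in MPG-HD, 619 in G-HD and 477 in PBS, and Cd8a was among its 10 leading genes. Cluster 11 had 402 in MPG-HD, 301 in G-HD and 197 in PBS. Cluster 1 had 266 in MPG-HD, 272 in G-HD and 275 in PBS. Cluster 7, led by class II genes, had the lowest, at 98.4 in MPG-HD, 119 in G-HD and 63.0 in PBS. In all 3 libraries the order of these classes began with cluster 3, then T-like cells, and ended with cluster 7. The T-like sums include cells without a Cd8a UMI, 28 of 53 in MPG-HD, 62 of 106 in G-HD and 28 of 51 in PBS. The order therefore does not compare cluster 3 with the T-like cells that hold Cd8a. Cluster 3 over T-like cells gave 1.09 in MPG-HD (0.905 to 1.33) and 1.09 in PBS (0.879 to 1.37), both within counting error of 1, and 1.40 in G-HD (1.19 to 1.65). Other neighbours that did not differ beyond counting error were microglia-like cells over cluster 1, 1.08 in MPG-HD (0.987 to 1.17), and microglia-like cells over cluster 11, 1.04 in G-HD (0.9501 to 1.14) and 1.02 in PBS (0.871 to 1.21). The step down to cluster 7 was larger than counting error in each library: its neighbour stood higher 2.70-fold in MPG-HD (2.15 to 3.42), 2.28-fold in G-HD (1.90 to 2.77) and 3.13-fold in PBS (2.16 to 4.67).

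Single cells showed the same contrast between clusters. A Cd8a UMI was present in 91.5% of cluster 3 cells in MPG-HD, 90.6% in G-HD and 87.5% in PBS, and in 24.4% of cluster 7 cells in MPG-HD, 25.4% in G-HD and 20.7% in PBS. The richest macrophage-like cell held 46 Cd8a UMIs in MPG-HD, 74 in G-HD and 47 in PBS, which was 1.58% of the Cd8a UMIs of the class in MPG-HD, 1.84% in G-HD and 2.78% in PBS. At least 5 Cd8a UMIs were held by 197 of 447 MPG-HD, 273 of 690 G-HD and 116 of 326 PBS macrophage-like cells, and by 87 of 379 MPG-HD, 65 of 281 G-HD and 47 of 270 PBS microglia-like cells.

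**Figure D2:**
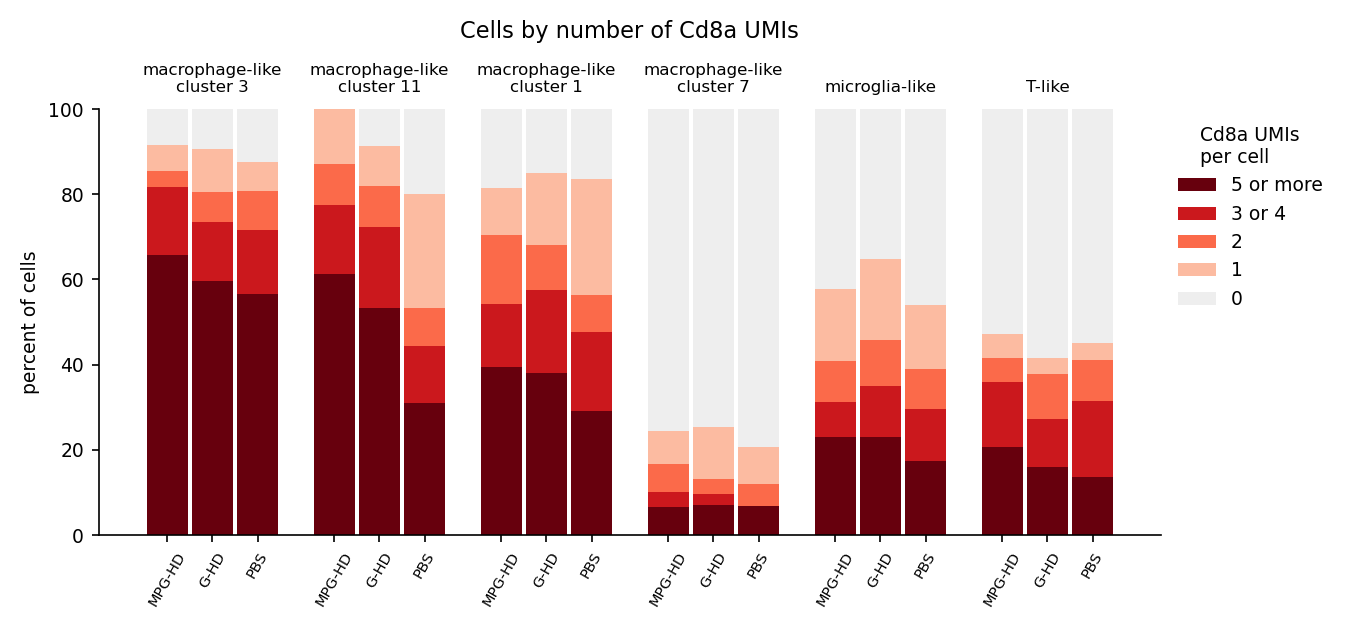
Percent of cells by the number of Cd8a UMIs they held, from 0 to 5 or more (colours), by class and library, without thinning. Cluster 3 has few cells without Cd8a (91.5% in MPG-HD, 90.6% in G-HD and 87.5% in PBS hold at least 1 UMI), while most cells of cluster 7 hold none.

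Cd4 was near the limit of detection. Macrophage-like cells held 42 UMIs in MPG-HD, 40 in G-HD and 39 in PBS, or 5.66 CPM in MPG-HD (4.08 to 7.65), 3.24 in G-HD (2.31 to 4.41) and 7.23 in PBS (5.14 to 9.89). Microglia-like cells held 45 in MPG-HD, 30 in G-HD and 33 in PBS, or 9.39 CPM in MPG-HD (6.85 to 12.6), 9.07 in G-HD (6.12 to 12.9) and 10.2 in PBS (7.004 to 14.3). A Cd4 UMI was present in 8.28% of macrophage-like cells in MPG-HD, 5.22% in G-HD and 10.1% in PBS, and in 9.50% of microglia-like cells in MPG-HD, 8.90% in G-HD and 10.7% in PBS. The background cells held 3 Cd4 UMIs in MPG-HD, 1 in G-HD and 0 in PBS, where a count of 0 allows 3 counts, so that up to 0.634% of the 473 PBS cells could hold a UMI. At 1000 UMIs per cell the shares of both phagocyte classes lay between 0.356% and 1.48%, too low to read an order from.

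T-like cells, where Cd4 marks helper cells, held 6 Cd4 UMIs in MPG-HD, 1 in G-HD and 3 in PBS, beside 247 Cd3e UMIs in MPG-HD, 456 in G-HD and 199 in PBS. Of the 5 MPG-HD, 1 G-HD and 3 PBS T-like cells with a Cd4 UMI, 0 held Cd8a in each library. Neither gene was found in 23 of 53 MPG-HD, 61 of 106 G-HD and 25 of 51 PBS T-like cells.

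Among the phagocyte clusters, Cd4 was placed differently from Cd8a. Cluster 7, lowest in Cd8a, was the highest phagocyte cluster in Cd4, at 24.9 CPM in MPG-HD (15.4 to 38.1), 17.7 in G-HD (10.5 to 28.0) and 22.9 in PBS (11.8 to 39.99). It stood above microglia-like cells 2.65-fold in MPG-HD (1.5004 to 4.54), 1.95-fold in G-HD (1.02 to 3.62) and 2.25-fold in PBS (1.06 to 4.47). Cluster 3 had 6.75 in MPG-HD, 7.69 in G-HD and 6.61 in PBS, cluster 1 had 0.618 in MPG-HD, 0.787 in G-HD and 3.14 in PBS, and cluster 11 had 2.42 in MPG-HD, 0.343 in G-HD and 8.04 in PBS. Cluster 3, highest in Cd8a, thus stood above cluster 1 in Cd4 as well in MPG-HD and G-HD. In PBS the ratio was 2.10 (0.746 to 6.75) from 13 and 6 UMIs, within counting error of 1. Microglia-like cells and cluster 3 did not differ in Cd4 beyond counting error in any library. Over the 15 sums of 5 phagocyte clusters in 3 libraries, Pearson's r on log2(CPM + 5) was -0.599 between Cd4 and Cd8a and 0.895 between Cd8b and Cd8a. These sums share libraries and depth, and most Cd4 sums hold fewer than 20 UMIs.

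Cluster 7 also held markers of dendritic cells, which carry class II too. The 7 markers summed to 71.1 CPM in MPG-HD, 59.98 in G-HD and 70.6 in PBS there, and to between 0.343 and 4.93 in the other phagocyte clusters, and Fscn1 and Zbtb46 were at 0 in cluster 7 in all 3 libraries. The 4 monocyte markers in the files summed to 349 CPM in MPG-HD, 347 in G-HD and 1093 in PBS in cluster 7, most of it Plac8, which was found in 13.3% in MPG-HD, 36.8% in G-HD and 29.3% in PBS of its cells. The part of either cell type in the Cd4 level of the cluster was not tested beyond the following split. Cells with a dendritic marker UMI numbered 14 in MPG-HD, 11 in G-HD and 7 in PBS and held 4 of 21 Cd4 UMIs of the cluster in MPG-HD, 0 of 18 in G-HD and 0 of 12 in PBS. Cells with a UMI of Lyve1, Mrc1 or Cd163, genes of border macrophages, numbered 197 in all and held 46 Cd4 UMIs, and 20.8% of them had one. The other 65 cells held 5, and 6.15% of them had one.

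**Figure D3:**
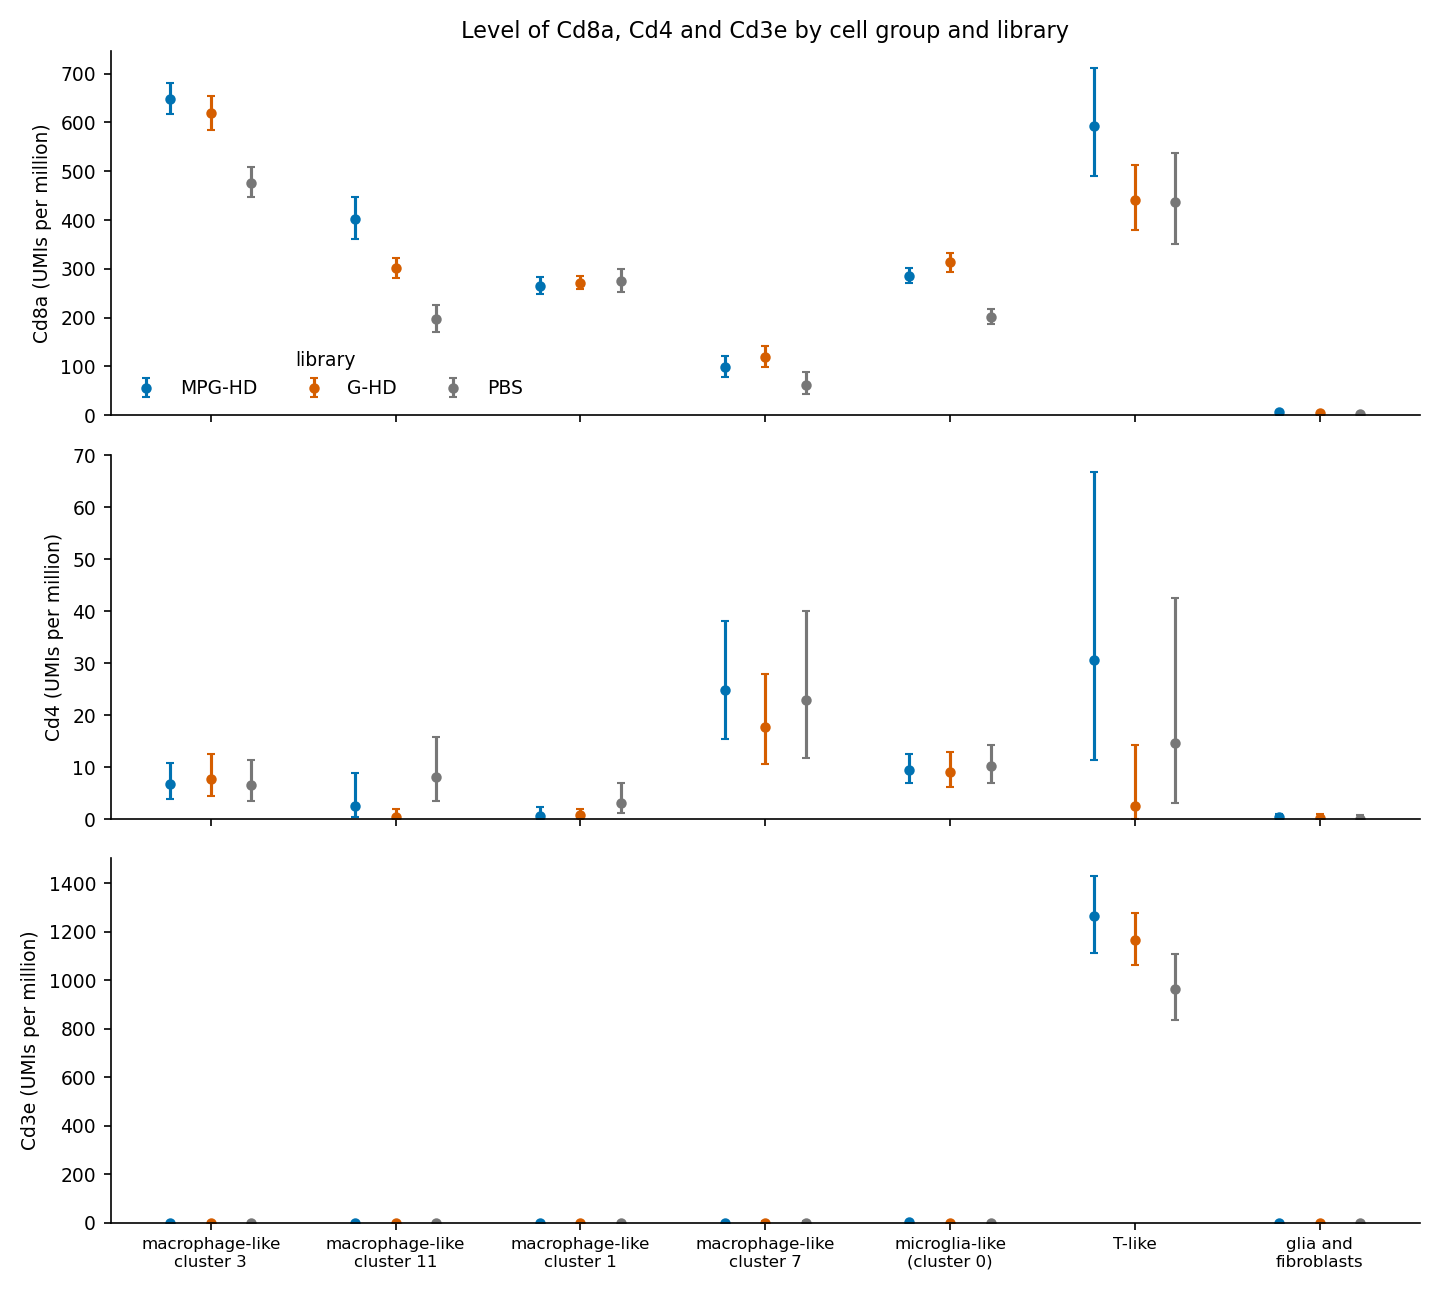
Level of Cd8a, Cd4 and Cd3e in CPM (vertical axes, one scale per gene) in 4 macrophage-like clusters, microglia-like cells, T-like cells and glia with fibroblasts, by library. Points are sums over cells and bars exact 95% Poisson intervals. Cd8a is highest in cluster 3 and T-like cells, Cd4 is highest among phagocytes in cluster 7, and Cd3e is near 0 outside T-like cells.

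T cell RNA was looked for in the phagocytes directly. Macrophage-like cells held 0 Cd3e UMIs in MPG-HD, 4 in G-HD and 0 in PBS, beside 2908 Cd8a UMIs in MPG-HD, 4011 in G-HD and 1690 in PBS, and at a limit of 3 counts for a count of 0, up to 0.671% of the 447 MPG-HD cells could hold a UMI. Microglia-like cells held 6 Cd3e UMIs in MPG-HD, 0 in G-HD and 0 in PBS, beside 1369 Cd8a UMIs in MPG-HD, 1036 in G-HD and 654 in PBS. T-like cells held 0.470 Cd8a UMIs per Cd3e UMI in MPG-HD, 0.379 in G-HD and 0.452 in PBS. Macrophage-like cells held at least 969 in MPG-HD, 1003 in G-HD and at least 563 in PBS, and microglia-like cells 228 in MPG-HD, at least 345 in G-HD and at least 218 in PBS, where a count of 0 was set to 3 UMIs per class and library. Cells without a UMI of Cd3d, Cd3e, Cd3g or Cd2 held 95.2 to 99.1% of the Cd8a UMIs and 97.0 to 100% of the Cd4 UMIs of the phagocyte classes over the 3 libraries.

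Of the wider T cell lists, several genes were near 0 in phagocytes. Cd3d, Cd3g, Cd247 and Zap70, chains and signalling partners of the receptor, reached at most 1.25 CPM in either class (Cd3d in MPG-HD microglia-like cells), and Cd28 was at 0. Cd6, an adhesion receptor known from T cells, was read in microglia-like cells, with 42.6 CPM in MPG-HD, 36.9 in G-HD and 38.5 in PBS there. T-like cells had 35.8 in MPG-HD, 76.7 in G-HD and 87.3 in PBS of Cd6. The 10 T cell markers summed to 45.7 in MPG-HD, 39.9 in G-HD and 41.0 in PBS in microglia-like cells, where Cd6 gave 93.2% of the UMIs in MPG-HD, 92.4% in G-HD and 94.0% in PBS and Bcl11b and Tcf7 were at 0 in all 3 libraries. They summed to 10.2 in MPG-HD, 8.98 in G-HD and 15.2 in PBS in macrophage-like cells, where Cd6 gave 64.5% of the UMIs in MPG-HD, 36.9% in G-HD and 43.9% in PBS and Cd2, another adhesion receptor of T and NK cells, 28.9% in MPG-HD, 46.8% in G-HD and 50% in PBS. Cd2 stood there at 2.96 CPM in MPG-HD, 4.21 in G-HD and 7.60 in PBS, and in T-like cells at 701 in MPG-HD, 611 in G-HD and 548 in PBS. The 10 markers summed to 4511 in MPG-HD, 4165 in G-HD and 3264 in PBS in T-like cells. The 7 NK cell markers in the files summed to 2.42 in MPG-HD, 4.04 in G-HD and 1.67 in PBS in macrophage-like cells, to 0.835 in MPG-HD, 2.72 in G-HD and 0.308 in PBS in microglia-like cells and to 7516 in MPG-HD, 11528 in G-HD and 12174 in PBS in NK-like cells, and Ncr1 and Prf1, which NK-like cells held in each library, were at 0 in both phagocyte classes of all 3 libraries. Gzmb was at 0 in NK-like cells too.

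Cd8b, the beta chain gene, accompanied Cd8a in phagocytes. Macrophage-like cells had 135 CPM of Cd8b in MPG-HD, 114 in G-HD and 116 in PBS, and 2.90 Cd8a UMIs per Cd8b UMI in MPG-HD (2.69 to 3.11), 2.83 in G-HD (2.67 to 3.01) and 2.70 in PBS (2.46 to 2.96). Microglia-like cells had 106 CPM of Cd8b in MPG-HD, 171 in G-HD and 82.0 in PBS, and 2.69 Cd8a UMIs per Cd8b UMI in MPG-HD, 1.83 in G-HD and 2.46 in PBS. In T-like cells the Cd8b level was 276 in MPG-HD, 141 in G-HD and 238 in PBS and the ratio 2.15 in MPG-HD, 3.15 in G-HD and 1.84 in PBS. Cluster 3 had a ratio of 3.62 in MPG-HD (3.26 to 4.03), 3.66 in G-HD (3.25 to 4.13) and 3.18 in PBS (2.78 to 3.63). Cluster 1 had 1.93 in MPG-HD (1.72 to 2.17), 2.08 in G-HD (1.91 to 2.26) and 2.38 in PBS (2.03 to 2.80), below cluster 3 with intervals that did not overlap in MPG-HD or G-HD. Cluster 11 had 3.82 in MPG-HD (3.01 to 4.89), 4.82 in G-HD (4.10 to 5.68) and 1.90 in PBS (1.49 to 2.44). It thus stood above cluster 3 in MPG-HD and G-HD and below it in PBS. Cluster 7 had 3.95 in MPG-HD, 2.37 in G-HD and 4.125 in PBS, from 21, 51 and 8 Cd8b UMIs. NK-like cells (11 MPG-HD, 15 G-HD and 5 PBS) held 8 Cd8a UMIs in MPG-HD, 31 in G-HD and 8 in PBS and no Cd8b UMI in any library.

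The kinase that CD4 and CD8 hold in T cells was scarce in phagocytes, while the related kinase Lyn was present. Lck stood at 3.23 CPM in MPG-HD, 4.04 in G-HD and 6.12 in PBS in macrophage-like cells, 2.71 in MPG-HD, 1.81 in G-HD and 2.78 in PBS in microglia-like cells and 552 in MPG-HD, 549 in G-HD and 437 in PBS in T-like cells. Lyn, a Src family kinase of myeloid and B cells, had 79.6 in MPG-HD, 81.0 in G-HD and 87.5 in PBS in macrophage-like and 128 in MPG-HD, 161 in G-HD and 149 in PBS in microglia-like cells. Zbtb7b, the regulator of the helper lineage, lay between 0.556 and 1.67 in the phagocyte classes and at 0 in T-like cells. The T-like sums held far fewer UMIs of all genes. At a limit of 3 counts, a 0 there allows levels above those of the phagocytes, so no order can be read. Runx3, a regulator of the cytotoxic lineage, lay between 1.67 and 4.93 in the phagocyte classes. Spi1, which encodes the myeloid regulator PU.1, had 234 in MPG-HD, 236 in G-HD and 242 in PBS in macrophage-like cells and 0 in T-like cells.

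Cd8b, itself on the list of genes beside Cd4 and Cd8a in the RefSeq order on GRCr8, accompanied Cd8a in phagocytes, as given above. The other listed neighbours gave other patterns. Lag3, beside Cd4, lay between 0.0809 and 0.185 CPM in macrophage-like and between 2.72 and 5.24 in microglia-like cells. Gpr162, Lrrc23 and Rmnd5a reached at most 0.617 in either class. Krcc1 had 120 in MPG-HD, 117 in G-HD and 121 in PBS in macrophage-like and 179 in MPG-HD, 123 in G-HD and 87.3 in PBS in T-like cells.

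Cells were then set apart by whether they held a Cd8a UMI after thinning to 3000 UMIs, and genes of the chosen lists are named where the counting interval of the ratio was off 1, in the same direction, in all 3 libraries. Cells share libraries and clusters, and these intervals do not cover the spread between cells. Among macrophage-like cells 217 MPG-HD, 279 G-HD and 135 PBS cells held Cd8a and 223 MPG-HD, 395 G-HD and 179 PBS cells did not. Cd8b stood higher in cells with Cd8a, at ratios of 2.41 in MPG-HD, 1.36 in G-HD and 1.70 in PBS. This was not so within cluster 1. There Cd8b was found in 26.7% of cells with and 30.6% without Cd8a in MPG-HD. The shares were 30.9% and 30.9% in G-HD and 35.1% and 29.0% in PBS. Within cluster 3 they were 45.0% and 32.7% in MPG-HD, 40.5% and 29.1% in G-HD and 40.3% and 33.3% in PBS. The C1q genes, which start the classical complement pathway, had ratios of 1.22 to 1.67, the osteopontin gene Spp1 1.31 to 1.86 and the folate receptor gene Folr2 1.23 to 1.55. Class II genes and their chaperone Cd74 stood lower, at ratios of 0.00374 to 0.113, as did the lectin gene Clec10a at 0.180 to 0.338 and the hyaluronan receptor gene Lyve1 at 0.241 to 0.476. Class II genes, Clec10a and Lyve1 lead cluster 7, where Cd8a was lowest. Within cluster 3 the C1q genes kept ratios of 1.13 to 1.28. Within cluster 1 they had 1.18 to 2.55, and the fatty acid carriers Fabp4 and Fabp5 stood lower at 0.457 to 0.738.

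Among microglia-like cells 130 MPG-HD, 105 G-HD and 86 PBS cells held Cd8a at that depth. Cd8b stood higher in them, at ratios of 2.27 in MPG-HD, 2.32 in G-HD and 3.09 in PBS. So did Apoe (1.51 to 1.63), Gpnmb (1.32 to 1.67), Cd68 (1.25 to 1.48) and Folr2 (1.46 to 1.57). Tmem119, a gene of resting microglia, stood lower, at 0.723 in MPG-HD, 0.467 in G-HD and 0.525 in PBS. Some microglia-like cells joined a macrophage-like cluster under other cell filters, and their part in these ratios was not tested. Cd8a was still read in microglia-like cells that held Tmem119: 56.3% of 284 MPG-HD, 63.7% of 204 G-HD and 52.7% of 201 PBS cells had a UMI. Without Tmem119 it was 62.1% of 95 MPG-HD, 67.5% of 77 G-HD and 58.0% of 69 PBS cells. The Cd8a level was 269 CPM with and 343 without Tmem119 in MPG-HD, 282 and 409 in G-HD and 190 and 238 in PBS. Split by the microglia marker Sall1, the shares were 48.9% with and 62.9% without it in MPG-HD. They were 58.9% and 66.8% in G-HD and 51.0% and 56.0% in PBS.

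**Figure D4:**
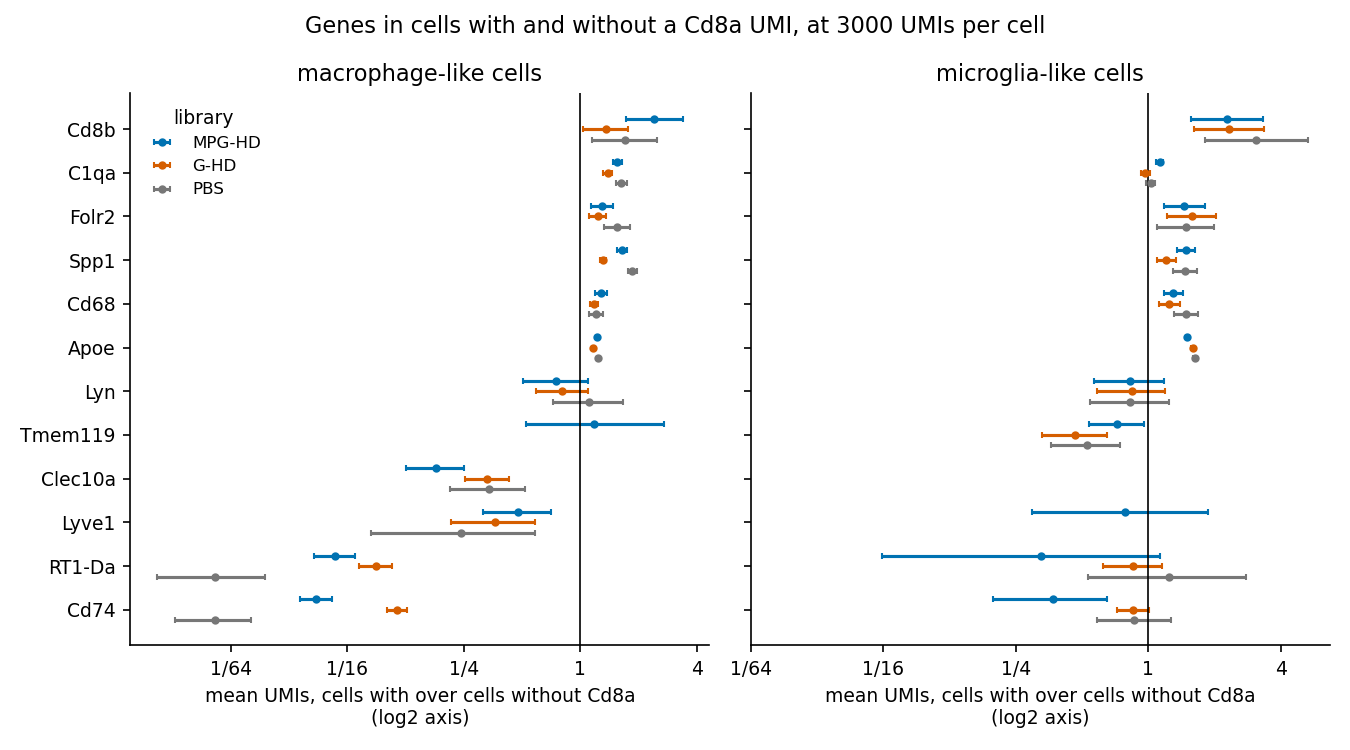
Ratio of mean UMIs in cells with over cells without a Cd8a UMI (horizontal axis, log2) for genes of the lists, at 3000 UMIs per cell, in macrophage-like and microglia-like cells. Points are libraries and bars exact 95% counting intervals, and ratios of 0 or from too few UMIs are not drawn. Cd8b lies right of 1 in both classes and class II genes far left of 1 in macrophage-like cells.

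Some phagocytes held both genes. Cd4 and Cd8a met in 20 MPG-HD, 23 G-HD and 19 PBS macrophage-like cells, where the product of their shares gives 27.7 in MPG-HD, 27.8 in G-HD and 24.2 in PBS. In microglia-like cells they met in 16 MPG-HD, 16 G-HD and 16 PBS cells, where the product gives 20.8 in MPG-HD, 16.2 in G-HD and 15.7 in PBS. Macrophage-like cells with a Cd4 UMI held Cd8a at shares of 54.1% in MPG-HD, 63.9% in G-HD and 57.6% in PBS, and those without at 76.8% in MPG-HD, 78.0% in G-HD and 75.1% in PBS. Cells with Cd4 were shallower, at medians of 11620 UMIs in MPG-HD, 11968 in G-HD and 15531 in PBS against 16519 in MPG-HD, 17402 in G-HD and 15827 in PBS without. At 3000 UMIs per cell the shares were 27.3% in MPG-HD, 42.9% in G-HD and 22.2% in PBS with Cd4 and 49.9% in MPG-HD, 41.4% in G-HD and 43.6% in PBS without, too few cells to read a gap from, since the cells with both genes numbered 3 in MPG-HD, 3 in G-HD and 2 in PBS. Within cluster 7, as sequenced, they were 26.3% in MPG-HD, 37.5% in G-HD and 20% in PBS with Cd4 and 23.9% in MPG-HD, 23.5% in G-HD and 20.8% in PBS without.

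Over 26 sums of cell classes in libraries, of at least 30 cells each, the genes most like Cd8a by Pearson's r among 6920 were Cd8b (0.988), Rgs1 (0.980), Lcp2 (0.9599), Fyb1 (0.955) and Rasa4 (0.954). Among the 5 most like Cd4 were Cd8b (0.899), Cd8a (0.872), Fyb1 (0.871) and Tmem156 (0.866). With Cd3e the correlation was 0.544 for Cd8a and 0.586 for Cd4. Over the 15 phagocyte cluster sums and 6408 genes, Sat2 (0.939), Hyal2 (0.934), Lhfpl6 (0.933), Ctsb (0.929) and Timp2 (0.910) came first for Cd8a. For Cd4, Tf (0.929), Tet3 (0.928), Ncf4 (0.926), Fnbp4 (0.922) and Tnfaip8l3 (0.921) came first. The sums share libraries and depth, and the correlations are a description.

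The remaining comparison set the libraries against each other. A gene was called where its level was 2-fold or more higher, or at 0.5 or less of the other, provided that the 2 sums held 20 UMIs or more between them. A call describes 2 libraries and not the treatments. In macrophage-like cells, 3.51%, 5.41% and 3.76% of genes were called for MPG-HD over PBS, G-HD over PBS and MPG-HD over G-HD. Cd8a was not called there, with 1.25 for MPG-HD over PBS (1.18 to 1.33), 1.04 for G-HD over PBS (0.978 to 1.10) and 1.21 for MPG-HD over G-HD (1.15 to 1.27). With the 4 clusters weighing the same, these ratios were 1.40, 1.30 and 1.08 in that order.

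Within clusters the picture was uneven. Cluster 11 held 332 Cd8a UMIs in 31 MPG-HD cells and 196 in 45 PBS cells, 2.04 for MPG-HD over PBS (1.71 to 2.45), which is a call in a cluster where 7.85% of genes were called. One MPG-HD cell gave 13.9% of those UMIs, and without it the ratio was 1.83, which is no call; this setting was chosen after seeing the data. G-HD stood in cluster 11 at 1.53 for G-HD over PBS (1.31 to 1.79), where 8.39% of genes were called. Cluster 7 stood at 1.56 for MPG-HD over PBS (1.03 to 2.42) and 1.89 for G-HD over PBS (1.28 to 2.87), where 6.82% and 8.80% of genes were called. Cluster 3 stood at 1.36 for MPG-HD over PBS (1.25 to 1.48) and 1.30 for G-HD over PBS (1.19 to 1.41), where 3.91% and 4.90% of genes were called. Cluster 1 stood at 0.967 for MPG-HD over PBS (0.867 to 1.08) and 0.9896 for G-HD over PBS (0.897 to 1.09), within counting error of 1, where 4.11% and 5.76% of genes were called.

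In microglia-like cells Cd8a stood at 1.42 for MPG-HD over PBS (1.29 to 1.56), 1.55 for G-HD over PBS (1.41 to 1.71) and 0.912 for MPG-HD over G-HD (0.841 to 0.9901), none of them a call, where 3.05%, 4.19% and 3.25% of genes were called. The MPG-HD over PBS ratio was 1.08 with a stricter cell filter, which moved part of cluster 0 into a macrophage-like cluster. Cd8b stood at 1.30 for MPG-HD over PBS (1.11 to 1.51) and at 2.08 for G-HD over PBS (1.80 to 2.42), and G-HD over PBS is a call. The list of CD4 and CD8 ligands held 9 genes, among them several class II genes and their chaperone Cd74, which is not itself a ligand. Of these 9, 5 were called higher and 0 lower for G-HD over PBS in microglia-like cells. Their median log2 ratio was 1.97 against 0.01 over all genes tested, where 2.52% of genes were called higher. For MPG-HD over PBS 0 were called higher and 3 lower, with a median of -0.90, where 1.48% of genes were called lower. In macrophage-like cells 0 of the 9 were called in either direction for MPG-HD or G-HD over PBS. Other markers moved with the G-HD level in microglia-like cells: the monocyte markers summed to 50.3 CPM in MPG-HD, 132 in G-HD and 33.3 in PBS, and 2 of 3 border macrophage genes tested were called higher for G-HD over PBS. Their part in the result was not tested. The class II gene RT1-Da had 22.5 CPM in MPG-HD, 217 in G-HD and 50.0 in PBS.

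T-like cells had Cd8a at 1.36 for MPG-HD over PBS (1.02 to 1.81), 1.01 for G-HD over PBS (0.780 to 1.32) and 1.34 for MPG-HD over G-HD (1.05 to 1.71), where 7.81%, 9.30% and 8.09% of genes were called. Cd4 had fewer than 20 UMIs there and gave no ratio.

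Cd4 in macrophage-like cells had 40 UMIs in 690 G-HD cells and 39 UMIs in 326 PBS cells, 0.447 for G-HD over PBS (0.281 to 0.714), which is a call. The other ratios, 0.782 for MPG-HD over PBS (0.494 to 1.24) and 1.75 for MPG-HD over G-HD (1.11 to 2.77), were not. G-HD over PBS was 0.652, no longer a call, with the clusters weighing the same. Within cluster 7 it was 0.773 for G-HD over PBS (0.352 to 1.76) and within cluster 3 1.16 for G-HD over PBS (0.525 to 2.63), both within counting error of 1, where 8.80% and 4.90% of genes were called. Clusters 1 and 11, with fewer than 20 Cd4 UMIs each over both libraries, stood at 0.250 for G-HD over PBS (0.0604 to 0.985) from 5 G-HD and 6 PBS UMIs, and at 0.0427 for G-HD over PBS (0.000961 to 0.318) from 1 G-HD and 8 PBS UMIs, both intervals below 1. In microglia-like cells Cd4 stood at 0.923 for MPG-HD over PBS (0.576 to 1.49) and 0.891 for G-HD over PBS (0.525 to 1.51), where a difference was not detectable at this depth.

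**Figure D5:**
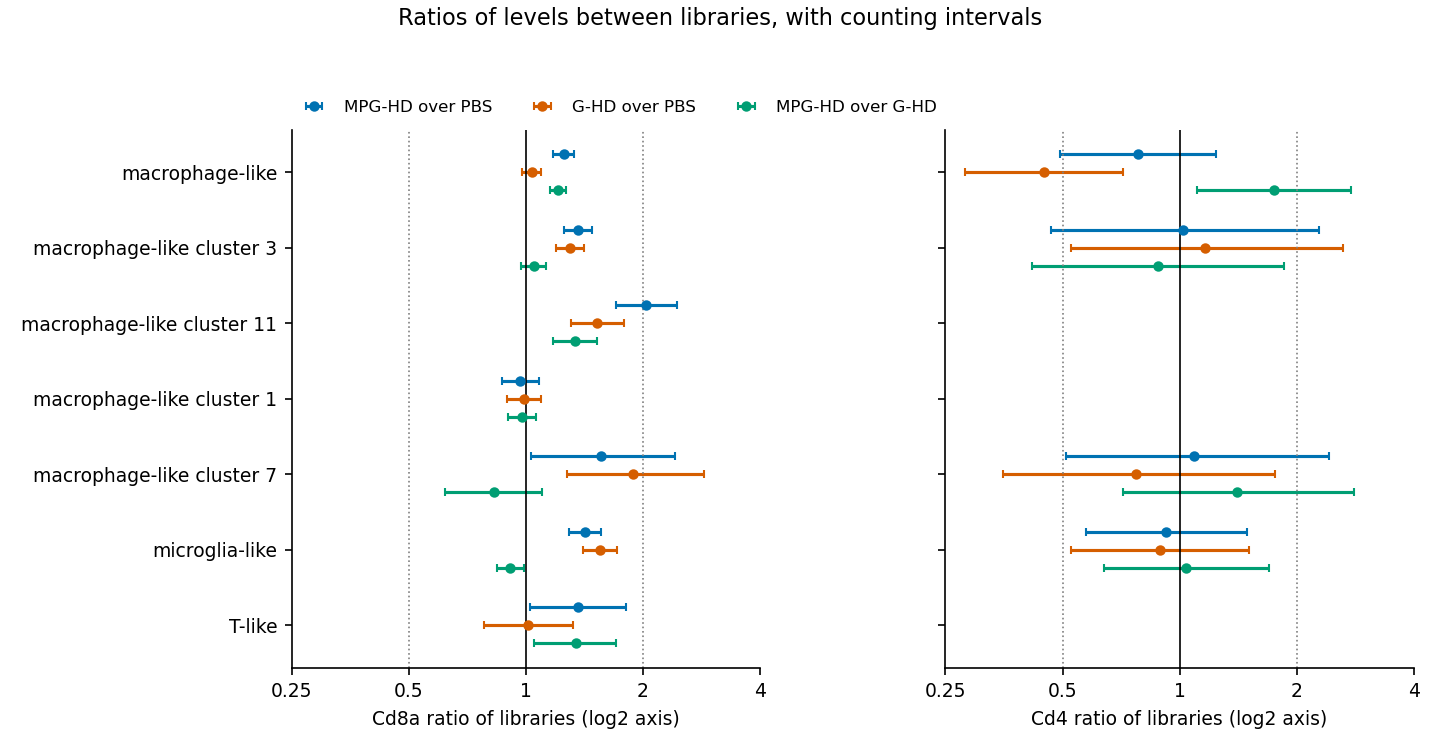
Ratio of Cd8a (left) and Cd4 (right) levels between libraries (horizontal axis, log2) in macrophage-like cells, their clusters, microglia-like and T-like cells, with exact 95% counting intervals. Dotted lines mark 0.5 and 2, and pairs with fewer than 20 UMIs are not drawn. Over PBS, Cd8a lies at 1 in cluster 1 and right of 1 in clusters 3, 7 and 11 and in microglia-like cells.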

How the data were processed

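Single-cell RNA of 3 libraries was measured by droplet sequencing. The deposited matrices hold counts of UMIs per gene and cell barcode. Per the submitters' processing notes they were made with Cell Ranger 3.0.2, whereas the matrix header names version 3.1.0. The notes name the mouse builds GRCm38 and mm10, although the features are rat Ensembl IDs, and the rat build is not given in the sources used here. From the counts, cells were kept from 200 detected genes upward and up to 20% of UMIs from mitochondrial genes (5815 of 6471 barcodes). Scrublet marked 12 doublets, 0.206%, so the caller was taken not to have worked; the marked cells were removed and others may remain. Scrublet was run through Scanpy 1.11.5. Cells were clustered with leidenalg 0.10.2 on 2000 variable genes, 30 components and 20 neighbours (scikit-learn 1.9.0) at resolution 0.8, under Python 3.11.15 with SciPy 1.17.1. Clusters were named from marker lists, each cluster scored against the mean of the others, a score set after a first naming left macrophage clusters unnamed. A level is the UMIs of a gene per 1000000 UMIs of the class (CPM), computed from the deposited counts. Intervals are exact Poisson, Clopper-Pearson for shares and exact conditional for ratios. The ratio computation was tested on simulated data. The members and lists were chosen with earlier results of these data known. Genes named are the members, Cd3e, genes of the lists, and the 5 genes with the highest Pearson r with each member; some of these genes are not reported here. Alternatives covered the cell filter, resolution, doublets, T cell UMIs, the richest cell, cell and cluster weight and thinning.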

Additional observations from a re-analysis of the deposited data

Results flagged for a closer look

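Cd8a differed between MPG-HD and G-HD in opposite directions in the phagocyte classes: the ratio of MPG-HD over G-HD was 1.21 in macrophage-like cells and 0.912 in microglia-like cells. Both intervals were off 1, and with 1 library per condition the difference between the classes was not tested. In macrophage-like cells the ratio was 1.08 with equal cluster weight.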

How the results depend on the processing

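Of 141 alternative values for the 15 level ratios of Cd4 and Cd8a, 132 stayed within the counting interval and 9 moved beyond it. A change of direction was judged for calls only. Cd4 in macrophage-like cells, G-HD over PBS, was the only call among them and kept its direction. Some of the others crossed 1. For G-HD over PBS, Cd8a ranged over 0.981 to 1.30 in macrophage-like and 0.862 to 1.08 in T-like cells. With every cluster weighing the same, Cd8a in macrophage-like cells stood at 1.40 for MPG-HD over PBS, 1.30 for G-HD over PBS and 1.08 for MPG-HD over G-HD. Cd8a in microglia-like cells, MPG-HD over PBS, was 1.12 without a cell filter, 1.08 with the stricter filter and 1.16 without the highest doublet scores. MPG-HD over G-HD was 0.722, 0.680 and 0.713 under those settings in the same order. In them 242, 249 and 248 of 930 microglia-like cells joined a macrophage-like cluster. Those cells held Cd8a at 487, 486 and 481 CPM in the same order. With the stricter filter the microglia-like level of Cd8a was 170 CPM in MPG-HD, 251 in G-HD and 158 in PBS. The Cd4 ratio of G-HD over PBS in macrophage-like cells ranged over 0.403 to 0.652 and was above 0.5 with equal cell weight (0.591) and equal cluster weight. All 48 alternative values of Cd8a per Cd3e UMI stayed within their intervals, which are wide. Cd3e counts below 3 were set to 3 UMIs in both the values and the intervals. Macrophage-like and microglia-like cells of PBS each held 0 Cd3e UMIs in the main setting. The values of PBS phagocytes, 737 to 785, could thus hardly move, and for them the count tests little. In MPG-HD phagocytes the values ran from 651 to 1407. Removing phagocytes with T cell UMIs makes Cd3e 0 there by construction. With that 0 set to 3 UMIs, this setting cannot test the ratio. Of 180 alternative shares of cells, 37 moved, most of them under thinning. Cd4 rests on few UMIs, which limits every Cd4 ratio. In cluster 11 the Cd8a ratio of MPG-HD over PBS was 2.05 without the richest cell of both libraries, a setting chosen after seeing the data. No paired analysis was possible because each condition has 1 library and the labels carry no replicate numbers.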

Other observations

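Clusters that took no name also held Cd8a. Cluster 4, led by haemoglobin genes, Ctsg and Elane, had 229 CPM in MPG-HD, 222 in G-HD and 235 in PBS. Its 10 leading genes also held Anxa3, C1qa and C1qb, which lead the microglia-like cluster 0 too. Cluster 15, led by haemoglobin and cell cycle genes and nearest to the macrophage markers, had 161 in MPG-HD, 189 in G-HD and 113 in PBS. Monocyte-like cells, with 11 Cd8a UMIs in MPG-HD, 3 in G-HD and 6 in PBS, had 169 in MPG-HD, 20.1 in G-HD and 67.4 in PBS. In cluster 24, led by Cyb561a3, Siglech and Irf8, 13 G-HD cells held 11 Cd8b and 2 Cd8a UMIs.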
